A study of Mus musculus with 53 samples.

Results

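Blood and endothelial cells share early progenitors, and 9 mouse genes that regulate or mark them (Kdr, Tie1, Etv2, Tal1, Lmo2, Gata2, Runx1, Cdh5 and Pecam1) were followed through embryonic stem (ES) cell differentiation with and without Polycomb repressive complex 2. The members were every probe set that carried exactly 1 gene symbol equal to one of these 9 names, which gave 16 probe sets among the 45037 on the array. Each gene was led by the probe set whose mean signal across the 53 arrays was highest, so the 9 genes stood among 18193 genes with such a probe set. The leading probe sets of 8 of the 9 lay above the median of their array on at least 2 arrays and were tested with 13807 genes in all; Tie1 did not and was not tested.

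In the embryo, blood and endothelium arise from mesoderm that leaves the primitive streak and begins to carry Kdr, the receptor for the growth factor VEGF. The ETS factor Etv2 acts briefly in this mesoderm, and the helix-loop-helix factor Tal1, its bridging partner Lmo2 and the zinc finger factor Gata2 then form a core of the blood programme. Runx1 is needed for blood stem cells to emerge from endothelium, while Cdh5 (VE-cadherin), Pecam1 and the receptor Tie1 mark endothelial cells.

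ES cells lacking Ezh2, the catalytic subunit of Polycomb repressive complex 2, were profiled undifferentiated (day 0, 6 arrays) and on days 2 (4), 6 (5) and 8 (2) of culture without LIF, a cytokine that maintains the ES cell state. Cells labelled Eed-null, without another core subunit of the complex, were profiled at day 0 (5 arrays), day 2 (2) and day 6 (2). Day 0 cells had been grown on feeder fibroblasts that were then depleted by letting them attach. Further groups were mesoendodermal cells carrying GFP under the brachyury (T) promoter (T-GFP, 2 arrays), neuronal progenitors marked by Sox1-GFP (3), fibroblasts from mouse embryos (MEF, 2) and neuronal stem cells (2). Wild-type ES cells served as reference at day 0 (7 arrays, lines J1, CJ7 and E14tg1), day 2 (4, J1 and CJ7), day 6 (5, J1 and CJ7) and day 8 (2, CJ7). The parental line of the mutants is not stated, so genotype and line cannot be told apart. Arrays are called biological replicates in the labels, with nothing on what was repeated, so the p-values measure only the spread between these arrays. In such bulk samples, fewer cells of a type and less RNA per cell cannot be told apart.

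Ezh2 signal was 52.6 to 245.9 on the 17 Ezh2-null arrays, against 652.7 to 1786.4 on the 18 wild-type arrays. The Eed probe set was not lower in cells labelled Eed-null at day 0 (2819.9 to 3098.6, against 2171.9 to 2884.9 in wild type), so it offers no check of that label. Marker lists followed the labels: the summed signal of 11 streak and mesoderm genes was 5224 to 7082 in T-GFP cells, against 436 to 623 in wild-type cells at day 0, that of 15 fibroblast genes 47845 to 56634 in MEF, against 823 to 2638, and that of 9 neural genes 7961 to 8115 in Sox1-GFP cells and 9460 to 9622 in neuronal stem cells, against 774 to 1059. At days 2 and 6 the arrays fell into 2 sets by how probe sets of the same gene compared with each other. The second set held the higher-numbered replicates of wild-type and Ezh2-null cells (3 and 4 on day 2, 3 to 5 on day 6) and both Eed-null arrays of each of these days. At day 2 the set coincided with line in wild type (J1 in the first, CJ7 in the second), and at day 6 the first set held J1 alone and the second both lines. Values are therefore also given within sets where the sets disagreed. Day 0 and day 8 arrays were given no set. A within-set difference from day 0 thus compares the later arrays of that set with all day 0 arrays, and mixes day with set.

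The members lie on 8 chromosomes (GRCm38.p6): Kdr at chr5:75932827-75979072, Tie1 at chr4:118471191-118489849, Etv2 at chr7:30633616-30636509, Tal1 at chr4:115056426-115071755, Lmo2 at chr2:103957903-103981878, Gata2 at chr6:88193891-88207032, Runx1 at chr16:92601466-92826074, Cdh5 at chr8:104101613-104144504 and Pecam1 at chr11:106654213-106715281. Of the 9 genes, 6 had promoter windows in the RefSeq table used (build GRCm38.p6). The 250 bases before a transcript start are printed for Kdr, called lower in both mutants at day 6, for Tal1, called lower in Ezh2-null cells at day 8, for Etv2, whose mutant and wild-type arrays of day 6 did not overlap though no difference was called, and for both starts of Runx1, which was not called in either mutant. Capitals mark matches on either strand to 3 short motifs: GATAA, read by GATA factors; CAGNTG, an E-box read by Tal1 with its partners; and CCGGAA, an ETS core.
Kdr: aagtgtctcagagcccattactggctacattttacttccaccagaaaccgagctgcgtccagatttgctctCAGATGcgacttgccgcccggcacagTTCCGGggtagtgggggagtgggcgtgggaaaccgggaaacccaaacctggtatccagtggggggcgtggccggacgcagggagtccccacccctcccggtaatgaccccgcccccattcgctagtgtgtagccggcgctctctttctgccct
Etv2: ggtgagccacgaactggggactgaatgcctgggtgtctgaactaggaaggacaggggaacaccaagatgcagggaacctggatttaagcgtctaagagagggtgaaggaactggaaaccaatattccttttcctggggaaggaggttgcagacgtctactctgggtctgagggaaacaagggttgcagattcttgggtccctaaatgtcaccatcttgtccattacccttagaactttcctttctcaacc
Tal1: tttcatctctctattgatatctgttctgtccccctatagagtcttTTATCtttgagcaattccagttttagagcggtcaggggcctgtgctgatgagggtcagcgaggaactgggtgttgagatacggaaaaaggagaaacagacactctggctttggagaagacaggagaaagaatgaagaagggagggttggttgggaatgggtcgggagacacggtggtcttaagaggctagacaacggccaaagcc
Runx1, proximal start: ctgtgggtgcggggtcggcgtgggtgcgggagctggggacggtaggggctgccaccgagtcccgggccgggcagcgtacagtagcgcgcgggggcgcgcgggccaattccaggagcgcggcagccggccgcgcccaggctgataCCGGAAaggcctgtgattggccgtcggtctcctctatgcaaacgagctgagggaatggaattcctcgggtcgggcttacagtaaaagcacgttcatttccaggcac
Runx1, distal start: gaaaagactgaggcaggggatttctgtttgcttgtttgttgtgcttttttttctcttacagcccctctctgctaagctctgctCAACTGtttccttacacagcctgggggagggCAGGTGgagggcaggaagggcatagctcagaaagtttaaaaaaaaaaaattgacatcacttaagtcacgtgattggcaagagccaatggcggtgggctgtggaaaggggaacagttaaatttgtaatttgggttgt

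The Kdr window (chr5:75978456-75978705, minus strand), which like that of Etv2 lies inside the gene's full span, held 1 E-box and 1 ETS core, and 16 CpG dinucleotides. The Etv2 window (chr7:30635853-30636102, minus strand) held none of the 3 motifs and 3 CpG. The Tal1 window at its upstream start (chr4:115056176-115056425, plus strand) held 1 GATAA and 6 CpG, and a second Tal1 window further downstream held no motif and 16 CpG. The proximal Runx1 window (chr16:92697330-92697579, minus strand) held 1 ETS core and 27 CpG, while the distal one (chr16:92826075-92826324, minus strand) held 2 E-boxes and 2 CpG. Over all 32851 windows of this length, 22.6% held GATAA, 44.8% CAGNTG and 12.0% CCGGAA, and the median was 6 CpG. Both Gata2 windows were CpG-rich (22 and 24) with no motif match, and the Tie1 window held 1 E-box and 6 CpG.

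Kdr, the VEGF receptor, rose strongly in wild-type cells by day 6 and was lower in both mutants at that day. In Ezh2-null cells Kdr signal was 228.3, 263.2, 470.3, 331.3 and 357.5 at day 6, and in cells labelled Eed-null 225.9 and 252.1, against 842.1, 680.9, 997.7, 1236.1 and 1272.2 in wild type. All 7 mutant arrays thus lay below all 5 wild-type ones. At day 8 Ezh2-null arrays had 164.9 and 238.3, against 670.8 and 639.2 in wild type, again without overlap. Wild-type cells ranged from 120.4 to 149.3 at day 0 (median 129.1, 7 arrays) and from 143.5 to 223.4 at day 2 (4 arrays), below every wild-type array of days 6 and 8. At days 0 and 2 mutant and wild-type values overlapped.

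On the log2(signal + 32) scale, on which all fold changes here were fitted with limma, Kdr rose by 2.63 ± 0.15 (SE) at day 6 and by 2.07 ± 0.20 at day 8 relative to day 0 in wild type (Benjamini-Hochberg adjusted p = 4.9e-19 and 2.6e-11). A gene counts as called here if its difference is 2-fold or more and its adjusted p is below 0.05. Against wild type, Kdr was lower by a log2 difference of -1.52 ± 0.16 in Ezh2-null cells at day 6 (adjusted p = 6.3e-10), -1.90 ± 0.21 in cells labelled Eed-null at day 6 (7.4e-09) and -1.57 ± 0.25 in Ezh2-null cells at day 8 (5.9e-05). These 3 calls were kept under every alternative run. Kdr still rose in Ezh2-null cells at day 6, by 1.12 ± 0.15 over day 0 (adjusted p = 2.0e-08), although that call was lost when array set entered as a block (0.84 ± 0.13), in the first set alone (0.77), with a larger added constant (0.80) and without Ezh2-null replicate 3 of day 6 (0.99). In cells labelled Eed-null the day 6 value was higher than day 0 by 0.62 ± 0.21 (adjusted p = 0.015), under the 2-fold minimum.

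**Figure D1:**
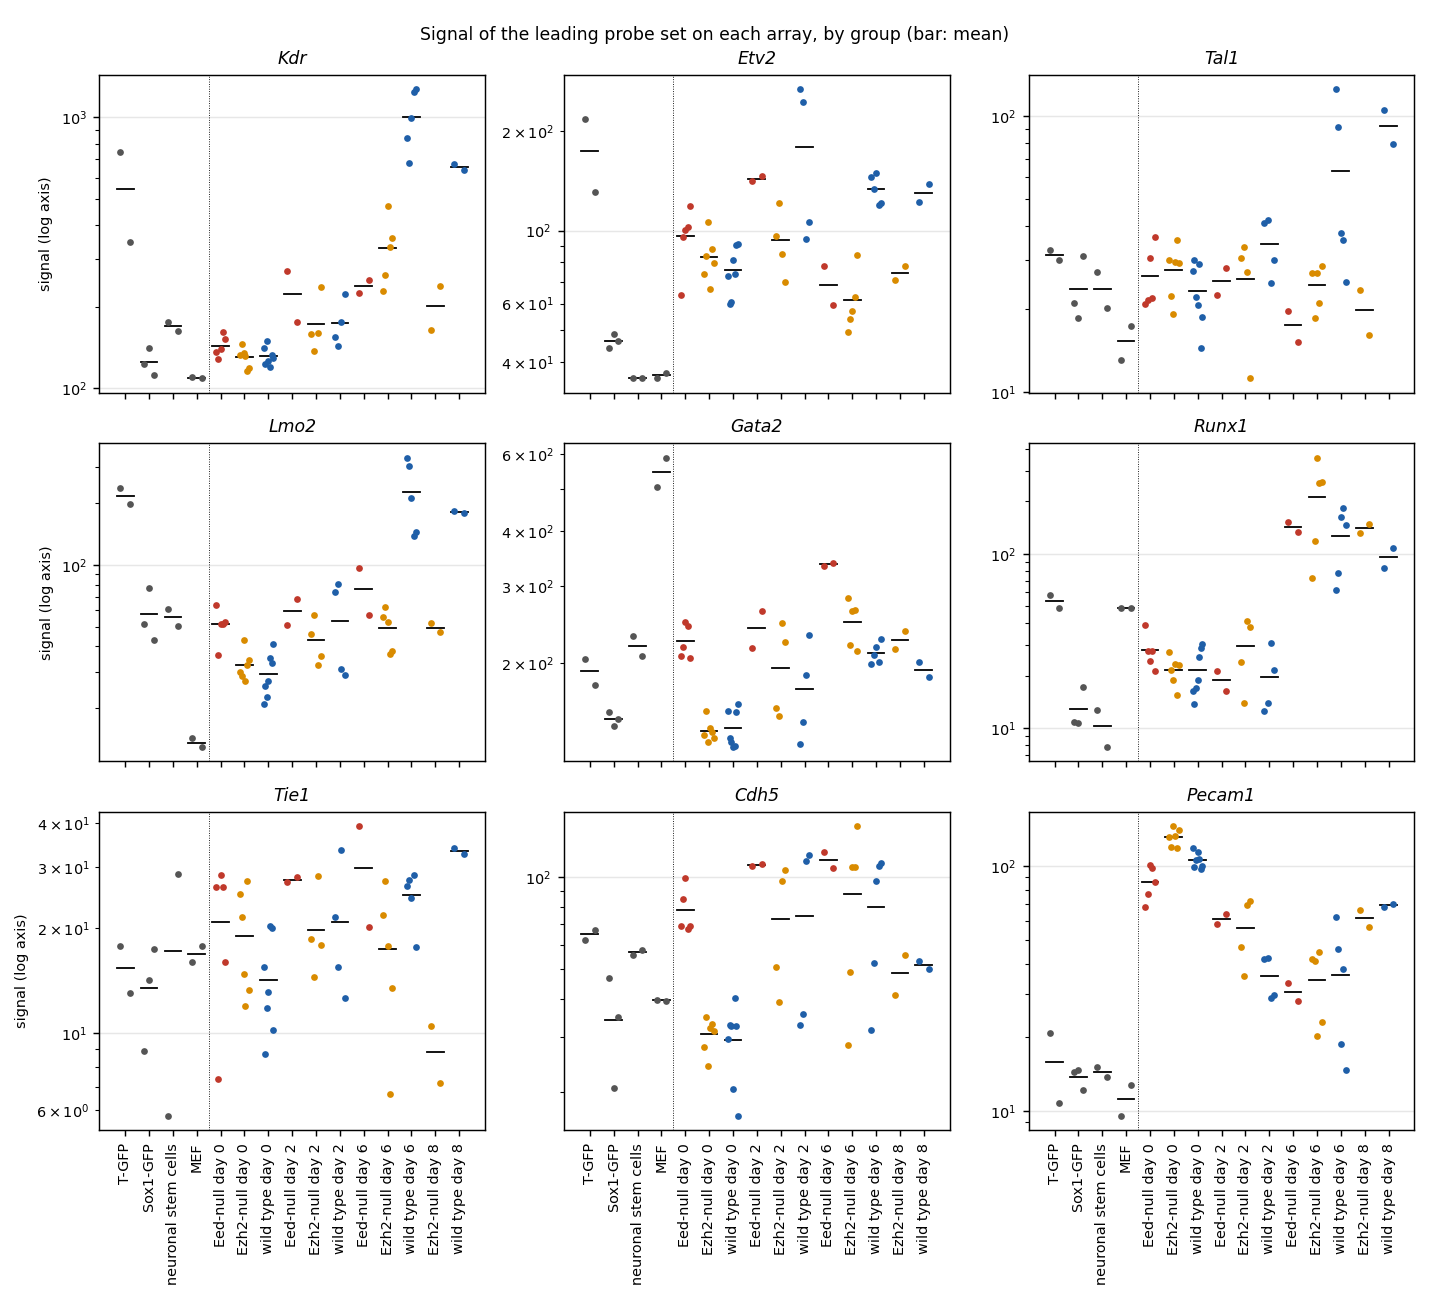
Signal of the leading probe set of each of the 9 genes on every array (log axis), with a bar at the group mean; cell types stand left of the dotted line and ES cells by day on the right. Kdr and Lmo2 are high in wild-type cells at days 6 and 8 and in T-GFP cells, while Pecam1 is high at day 0, where wild type lies between 97.1 and 118.5.

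The plot of signal by group also shows Tie1, the second receptor, which stayed between 5.8 and 39.3 on all 53 arrays and above the array median on none. The array medians lay between 50.5 and 63.0. At day 8 Tie1 was listed at 10.5 and 7.2 in Ezh2-null cells, against 34.0 and 32.6 in wild type. These dim values were not tested.

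Etv2, the ETS factor that acts early in Kdr-positive mesoderm, was already higher at day 2 in part of the wild-type arrays. Its wild-type signal was 60.0 to 91.1 at day 0 (median 74.0), then 268.6, 245.6, 94.0 and 106.0 at day 2. At day 6 it was 144.9, 133.9, 149.5, 119.6 and 121.1, and at day 8 122.0 and 138.1. The pair of high day 2 arrays were the J1 arrays of the first set, and even the CJ7 arrays lay above all 7 day 0 arrays. The log2 difference at day 2 was 0.87 ± 0.16 (limma, adjusted p = 3.3e-05), short of 2-fold over all arrays, but 1.43 in the first set alone (3.1e-09) and 0.30 in the second (0.071).

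At day 6 Etv2 had 49.4, 54.1, 56.9, 63.0 and 84.4 in Ezh2-null cells and 77.8 and 59.3 in cells labelled Eed-null, against 119.6 to 149.5 in wild type. No mutant array reached a wild-type one. The log2 differences were -0.83 ± 0.16 for Ezh2-null (limma, adjusted p = 7.4e-05) and -0.72 ± 0.21 for Eed-null (0.014), both under the 2-fold minimum. Within the first set the Ezh2-null difference was -1.03 (9.7e-05) and within the second -0.70 (0.00016). At day 2 the Ezh2-null arrays had 96.5, 121.6, 85.1 and 70.0, against 268.6, 245.6, 94.0 and 106.0 in wild type. That difference was -0.66 ± 0.18 with an adjusted p of 0.058, and -1.04 (0.0011) in the first set alone. At day 8 it was 71.0 and 78.1 in Ezh2-null cells, against 122.0 and 138.1 in wild type (-0.60 ± 0.25, adjusted p = 0.25).

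Tal1, a master regulator of blood, rose in wild type by day 8, and at day 6 its signal differed between the array sets of wild type. In Ezh2-null cells Tal1 signal was 18.6 to 28.5 at day 6 and 23.5 and 16.1 at day 8, and cells labelled Eed-null had 19.7 and 15.2 at day 6. At day 6 wild-type signal was 125.3 and 91.6 on the 2 arrays of the first set but 37.7, 35.6 and 25.0 on the 3 arrays of the second, and at day 8 it was 105.3 and 79.1. All mutant values of days 6 and 8 lay inside or near the wild-type range of day 0, which was 14.4 to 30.2 (median 22.1, 7 arrays). Signals this far below the array median are compressed by the added 32. Tal1 lay above the array median on only 4 arrays, 2 wild-type ones of day 6 and both of day 8. It was therefore tested only through groups in which it was high, so the p-values below give no independent support for a difference.

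Tal1 rose in wild type by 1.17 ± 0.20 at day 8 over day 0 (limma, adjusted p = 6.9e-06), and fell short of 2-fold at day 6 (0.68 ± 0.15, 0.00014), where the first set gave 1.34 (9.9e-11) and the second 0.23 (0.056). At day 8 it was lower in Ezh2-null than in wild-type cells, at a log2 difference of -1.26 ± 0.25 (adjusted p = 0.0016). That call was lost without wild-type replicate 1 (-1.10, adjusted p = 0.099) or without Ezh2-null replicate 2 (-1.15, 0.058). At day 6 the Ezh2-null difference was -0.64 ± 0.16 (0.0019), made of -1.35 in the first set (2.1e-07) and -0.17 in the second (0.33). The Eed-null difference was -0.83 ± 0.21 (0.0045), and both Eed-null arrays were in the second set, where it was -0.39 (0.047).

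Embryonic globins followed the same wild-type arrays as Tal1. Hbb-bh1, an embryonic beta-like globin, was at 9.0 to 17.2 in Ezh2-null cells at day 6 and 11.5 and 4.4 at day 8. In wild type it was at 4661.6 and 4059.2 on the first-set arrays of day 6 and at 113.0, 41.3 and 98.3 on the second-set ones, and at day 8 it was 4462.8 and 3891.6. Over the 15 group means Hbb-bh1 was the gene most alike Tal1 in pattern (Pearson r = 0.946), followed by the erythroid factor Nfe2 (0.919) and the globin Hba-x (0.908). The streak factor Mixl1 ran the other way among these arrays, at 283.0 and 382.1 in the first set and 1813.6, 1841.9 and 1914.4 in the second. In wild type at day 6, the array set thus coincided with the globin and streak signals, and the 2 cannot be told apart.

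Lmo2, which bridges Tal1 and GATA factors in one complex, resembled Kdr. In Ezh2-null cells its signal was 55.7, 62.6, 52.8, 36.6 and 37.9 at day 6, and cells labelled Eed-null had 96.4 and 57.0, against 335.3, 305.5, 212.5, 138.3 and 144.9 in wild type. At day 8 Ezh2-null cells had 52.1 and 46.9, against 183.8 and 178.7 in wild type. Each mutant array lay below each wild-type array of its day. Earlier wild-type signal was 21.0 to 40.9 at day 0 (median 27.2), and 73.7, 80.4, 31.2 and 28.9 at day 2.

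Lmo2 rose in wild type by 2.02 ± 0.15 at day 6 and 1.81 ± 0.21 at day 8 over day 0 (limma, adjusted p = 8.9e-15 and 2.8e-09). It was lower than in wild type, at log2 differences of -1.62 ± 0.17 in Ezh2-null cells at day 6 (adjusted p = 5.4e-10) and -1.39 ± 0.26 at day 8 (0.00096). In cells labelled Eed-null at day 6 the difference was -1.21 ± 0.22 (9.4e-05). The Eed-null call depended on the setting: with array set as a block it was -0.98 (9.8e-06), within the second set -0.86 (0.00011), and without Eed-null replicate 2 of day 6 -0.94 (0.040), all under 2-fold. In a fit of only the arrays compared its adjusted p was 0.052. In neither mutant did Lmo2 differ by 2-fold between day 6 and day 0 (0.32 ± 0.16 in Ezh2-null cells, adjusted p = 0.074, and 0.37 ± 0.22 in cells labelled Eed-null, 0.19). Over the 15 group means Kdr and Lmo2 correlated at r = 0.917, groups that share line, day and array set.

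**Figure D2:**
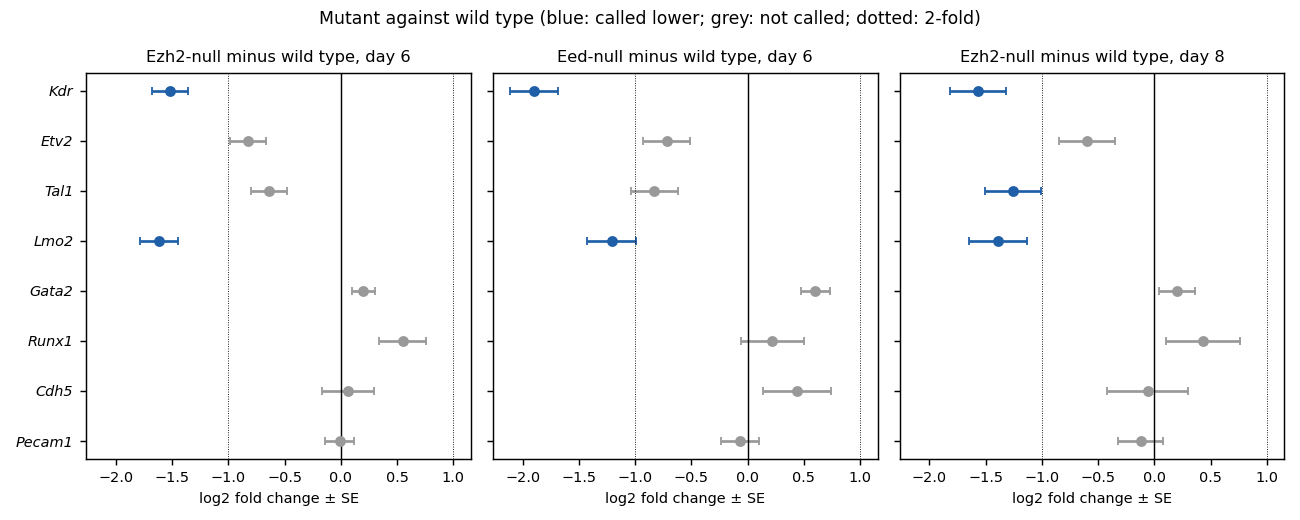
Log2 fold change with its SE for the 8 tested genes: Ezh2-null minus wild type at day 6, Eed-null minus wild type at day 6 and Ezh2-null minus wild type at day 8. Blue points were called lower, grey ones were not called, and dotted lines mark 2-fold; Kdr and Lmo2 are blue in all 3 panels and Tal1 at day 8.

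The plot of mutant against wild-type differences sums the calls. At day 6, 2 of the 8 tested members were called in Ezh2-null cells, both lower, where 3.03% of all tested genes were called and 1.14% called lower. The day 6 comparison of cells labelled Eed-null called 2, both lower, against 3.10% of all genes and 1.25% called lower. At day 8, 3 of 8 were lower in Ezh2-null cells, against 1.06% of all genes called and 0.282% called lower. Of these, Tal1 was tested only through wild-type arrays in which it was high. Without regard to size, every mutant array lay below every wild-type array for 3 members in Ezh2-null cells at day 6 (Kdr, Lmo2 and Etv2, 5.29% of all genes) and above for 0 (6.01%). The same held for 4 in cells labelled Eed-null (these and Tal1, 18.5% of genes), with 1 above (Gata2, 17.0%). For Ezh2-null cells at day 8 there were 5 below (these 4 and Pecam1, 22.5%) and 2 above (Gata2 and Runx1, 31.7%). None was called at day 0 in Ezh2-null cells (0.0507% of all genes) or in cells labelled Eed-null (2.26%), nor at day 2 (0.123% and 1.04%). At an unadjusted limma p under 0.05 these 4 comparisons had 1, 3, 2 and 2 members. The mutant comparisons of a day share their wild-type arrays, so they are not independent of each other.

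The change from day 0 was also tested between genotypes, as an interaction. For day 6, the log2 change in Ezh2-null cells minus that in wild type was -1.51 ± 0.21 for Kdr (limma, adjusted p = 1.6e-06) and -1.69 ± 0.22 for Lmo2 (4.7e-07), with 3.09% of all genes called. For cells labelled Eed-null the values were -2.01 ± 0.25 for Kdr (3.7e-07) and -1.65 ± 0.27 for Lmo2 (2.2e-05), with 4.69% of genes called. For day 8 the Ezh2-null interaction called Kdr (-1.56 ± 0.28, 0.0015), Tal1 (-1.37 ± 0.29, 0.0060) and Lmo2 (-1.47 ± 0.30, 0.0048), against 0.782% of genes. The Tal1 and Lmo2 calls of day 8 were lost without wild-type replicate 1 or without Ezh2-null replicate 2 of that day. Tal1 was tested only through its high wild-type arrays. Etv2 had interactions of -0.93 ± 0.21 (0.0015) and -0.97 ± 0.26 (0.0062) at day 6, just under 2-fold.

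Runx1, needed for definitive blood, did not follow Kdr and Lmo2 in the mutants. Its leading probe set gave 72.7, 118.9, 355.9, 254.3 and 258.8 in Ezh2-null cells at day 6 and 151.9 and 134.1 in cells labelled Eed-null, against 61.8, 77.4, 162.7, 182.2 and 145.9 in wild type. At day 8 it was 131.1 and 148.1 in Ezh2-null cells, against 83.4 and 107.5 in wild type. At day 0 wild-type values were 13.8 to 30.3 (median 19.0). The genotypes overlapped at day 6, where the second-set arrays were higher than the first-set ones in both Ezh2-null and wild-type cells. Leading Runx1 lay above the array median on 16 arrays, all of them of days 6 and 8. It was therefore tested only through groups in which it was high. The p-values below for its rise from day 0 thus give no independent support for that rise.

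Runx1 rose between day 0 and day 6 in all 3 genotypes: by 2.04 ± 0.20 in Ezh2-null cells (limma, adjusted p = 7.9e-12), 1.55 ± 0.28 in cells labelled Eed-null (2.0e-05) and 1.5 ± 0.19 in wild type (1.3e-08). With array set as a block the Eed-null value was 0.73 (0.0021), and in the first set alone the wild-type value was 0.93 (2.6e-07), both under 2-fold. The mean of all 6 Runx1 probe sets gave 0.97, 0.58 and 0.63 for the same 3 rises. At day 8 the rises were 1.68 ± 0.27 in Ezh2-null cells (3.1e-06) and 1.25 ± 0.26 in wild type (0.00015). Ezh2-null cells were higher than wild type at day 6 by 0.55 ± 0.21 (0.048), under the 2-fold minimum.

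The other Runx1 probe sets give a partly different view. Probe set 1440878_at was at 81.5, 137.7, 123.6, 96.0 and 109.5 in Ezh2-null cells at day 6, 35.6 and 46.7 in cells labelled Eed-null, and 59.0, 58.8, 41.5, 40.0 and 33.8 in wild type. All 5 Ezh2-null arrays were above all 5 wild-type ones, by a log2 difference of 0.85 ± 0.10 (limma, adjusted p = 1.7e-08), and within each array set the groups did not overlap either. The day 0 to day 6 change was larger in Ezh2-null cells by 0.83 ± 0.14 (2.1e-05) on this probe set, while Eed-null and wild-type values overlapped. Probe set 1422865_at was highest in MEF (178.3 and 254.5), against 20.9 to 31.0 in wild-type cells at day 0 (2.06 ± 0.16, 1.2e-14), where the leading probe set gave 48.8 and 49.0 in MEF. Of the remaining 3 probe sets none exceeded 62.0 on any array.

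**Figure D3:**
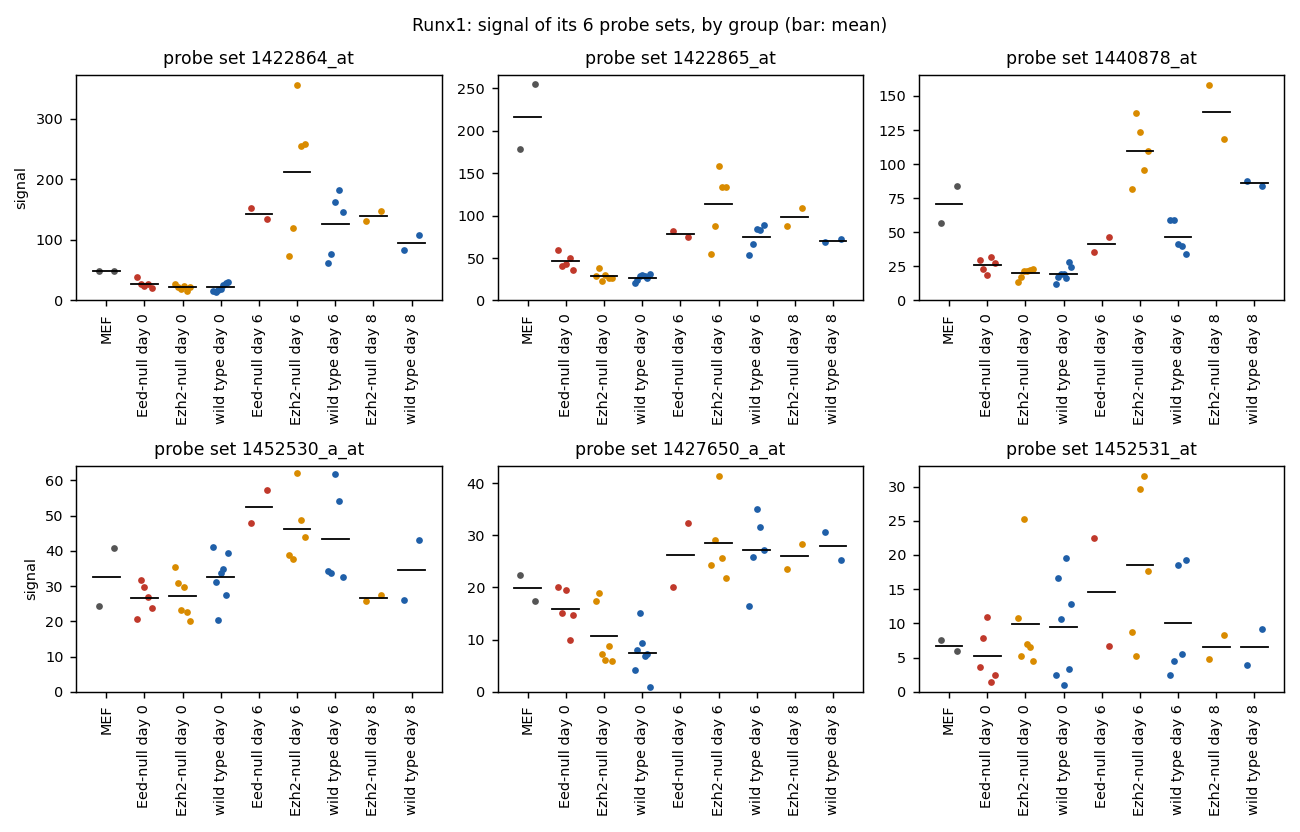
Signal of the 6 Runx1 probe sets on each array for MEF and for ES cells by genotype at days 0, 6 and 8, with a bar at the group mean. On 1440878_at the 5 Ezh2-null arrays of day 6 lie between 81.5 and 137.7, above the wild-type arrays at 33.8 to 59.0, whereas the leading probe set 1422864_at overlaps.

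The plot of Runx1 probe sets shows that probe sets of 1 gene ranked the groups differently: MEF exceeded all ES cell groups on 1422865_at but not on 1422864_at or 1440878_at. Fibroblast genes did not follow these values throughout. Their summed signal was 2544 to 7571 in Ezh2-null cells at day 6, against 2384 to 2921 in wild type, and 6601 to 6985 in Ezh2-null cells at day 8, against 8158 to 9209 in wild type. On the Ezh2-null arrays of day 6 the sum was 7571 and 5360 in the first set and 3228, 2544 and 3100 in the second, where leading Runx1 was higher. Its part in the result was not tested.

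Gata2, a zinc finger factor of blood progenitors that other tissues also use, was highest in MEF (505.7 and 590.2), against 128.6 to 161.2 in wild-type cells at day 0 (median 134.5). The log2 difference was 1.74 ± 0.13 (limma, adjusted p = 1.5e-15), and its second probe set gave 1.84 ± 0.25 (4.0e-08). At day 6 Gata2 was at 281.3, 220.6, 262.6, 263.9 and 212.7 in Ezh2-null cells and 333.9 and 339.1 in cells labelled Eed-null, against 199.0, 209.1, 218.0, 201.6 and 227.1 in wild type. Both Eed-null arrays were above all others of that day, by 0.60 ± 0.13 (0.0013), under 2-fold. Gata2 was therefore not lower in either mutant.

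Cells labelled Eed-null were higher in Gata2 already at day 0, with 207.8, 218.1, 248.6, 243.5 and 205.1, against 128.6 to 161.2 in wild type (0.56 ± 0.09, limma, adjusted p = 6.6e-06), without overlap but under 2-fold. Fibroblast genes were also higher than in wild type on 4 of these 5 arrays. Their summed signal, in the same order of arrays, was 9096, 6427, 5623, 6302 and 972, against 823 to 2638 in wild type. Among these 4 arrays the highest sum went with the lowest Gata2 signal. The fifth array, with the low sum and a Col1a1 signal of 9.0, had a Gata2 signal of 205.1, above all wild-type arrays of day 0. The leading Cdh5 probe set had 69.2, 84.9, 99.0, 67.7 and 69.3 at day 0 in cells labelled Eed-null, against 16.7 to 40.4 in wild type, without overlap (0.85 ± 0.21, limma, adjusted p = 0.0013). This was the largest difference of a tested member in that comparison, under 2-fold with 32 added and called with 8 added (1.22, 0.00072). The other Cdh5 probe set, 1433956_at, differed less, at 38.3 to 46.5 in cells labelled Eed-null, against 27.5 to 38.3 in wild type. Lmo2 had 36.5 to 63.8, against 21.0 to 40.9 in wild type, with overlap (0.44 ± 0.15, adjusted p = 0.018, not called). MEF had 39.8 and 39.4 for leading Cdh5 and 14.2 and 12.9 for Lmo2. The part of feeder fibroblasts in these day 0 differences was not tested.

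Cdh5, the endothelial cadherin, differed between the array sets at days 2 and 6 in both genotypes that had arrays in each. Its leading probe set was at 107.8, 107.4 and 146.3 on the second-set Ezh2-null arrays of day 6, 120.1 and 106.5 on the Eed-null ones and 96.9, 108.3 and 111.2 on the wild-type ones. First-set arrays of day 6 had 28.3 and 48.9 in Ezh2-null cells and 31.7 and 52.3 in wild type. Day 2 split alike, with 97.1 to 117.5 in the second set of the 3 genotypes and 33.0 to 50.9 in the first. No comparison called this probe set in the fit over all arrays. The difference between wild-type day 6 and day 0 was 1.17 with only second-set arrays of day 6 (limma, adjusted p = 9.2e-12) and 0.27 with only first-set ones (0.11). Both fits used all day 0 arrays, which have no set, so day and array set cannot be told apart in them.

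The other Cdh5 probe set, 1433956_at, gave 48.0 and 48.1 in Ezh2-null cells at day 8, against 84.0 and 90 in wild type. It was 27.5 to 38.3 in wild-type cells at day 0, so both wild-type arrays of day 8 lay above all 7 of day 0 (0.84 ± 0.14, limma, adjusted p = 5.4e-06), under 2-fold. Against wild type at day 8 the Ezh2-null difference was -0.57 ± 0.18 with an adjusted p of 0.076. At day 6 the first-set wild-type arrays, those with high globins, had 79.8 and 77.5, against 58.4, 59.6 and 31.8 in the second set.

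**Figure D4:**
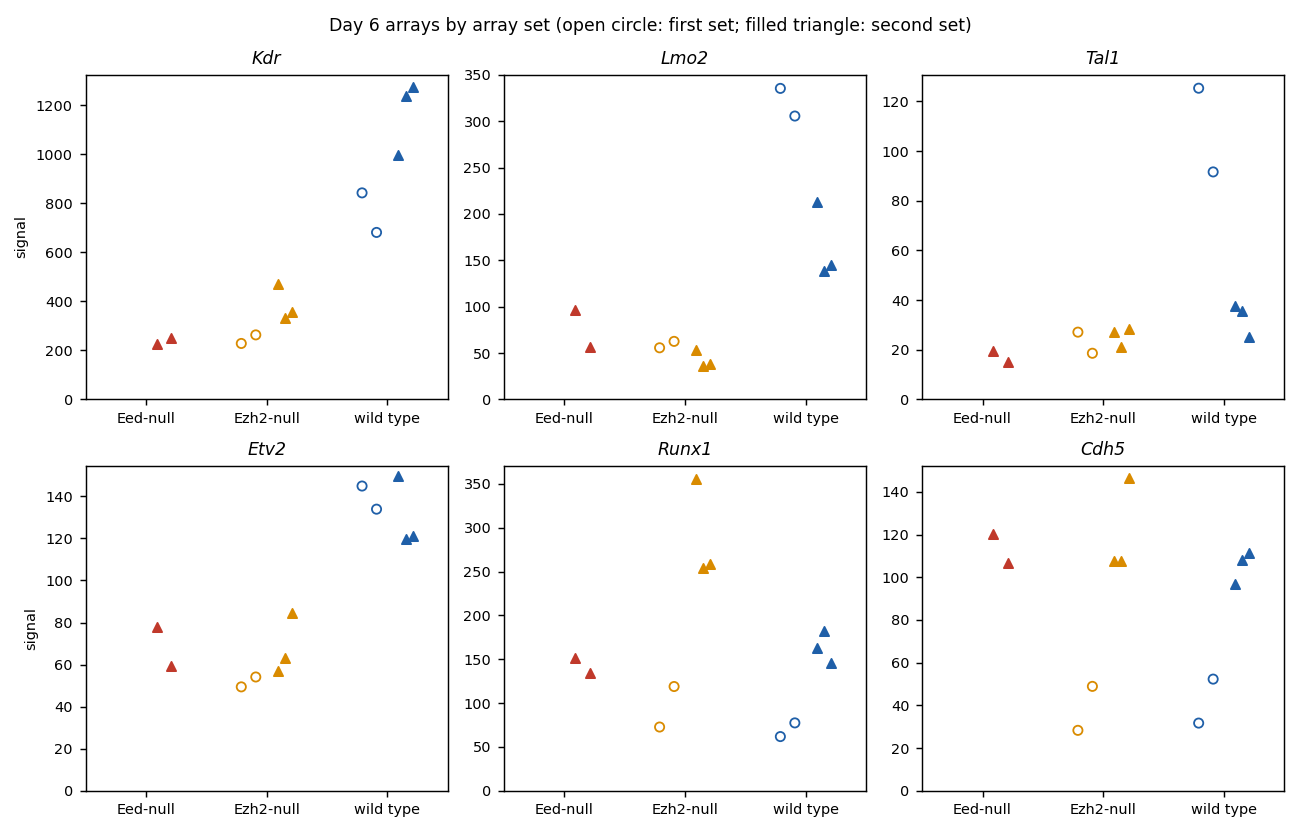
Signal at day 6 of Kdr, Lmo2, Tal1, Etv2, Runx1 and Cdh5 in Eed-null, Ezh2-null and wild-type cells, with open circles for arrays of the first set and filled triangles for the second. Kdr, Lmo2 and Etv2 are lower in Ezh2-null cells in each set, Tal1 differs clearly in the first set, where wild type has 125.3 and 91.6, and the leading Cdh5 and Runx1 probe sets follow the set in both Ezh2-null and wild-type cells.

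The plot of day 6 arrays by set shows each difference within the sets. For Kdr the Ezh2-null difference was -1.51 in the first set and -1.53 in the second, and for Lmo2 it was -1.95 and -1.39. For Tal1 it was -1.35 and -0.17, as described above. For leading Runx1 it was 0.31 (adjusted p = 0.22) and 0.71 (1.4e-05), and for leading Cdh5 -0.07 and 0.14.

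Pecam1, an endothelial adhesion molecule that undifferentiated ES cells also carry, ran opposite to Kdr in wild type. Its signal was 97.1 to 118.5 at day 0 (median 105.6), 41.6, 42.1, 29.0 and 29.9 at day 2, 62.3, 45.9, 18.8, 38.2 and 14.8 at day 6, and 68.4 and 69.8 at day 8. Every later array was below every day 0 array. It fell by 1.03 at day 2 (SE 0.13, limma, adjusted p = 3.3e-08) and by 1.07 at day 6 (SE 0.12, 4.7e-10), while day 8 was lower than day 0 by only -0.45 ± 0.16 (0.025). Both calls sat at the 2-fold limit and were lost in the first set alone (-0.90 at day 2, -0.68 at day 6) and when array set entered the fit as a block (-0.93 and -0.95). They were also lost without wild-type replicate 3 (-0.98 at day 2, -0.97 at day 6), without replicate 4 of day 2 (-0.99) and without replicate 5 of day 6 (-0.94).

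At day 6 Pecam1 was 20.2 to 44.7 in Ezh2-null cells and 33.3 and 28.2 in cells labelled Eed-null, inside the wild-type range of 14.8 to 62.3. In Ezh2-null cells at day 0 it was 119.0 to 145.6, above all wild-type arrays of that day (97.1 to 118.5), though not called. From there it fell by 1.32 to day 6 (SE 0.12, limma, adjusted p = 2.5e-12). Values were also low in MEF (9.6 and 12.8), neuronal stem cells (15.2 and 13.8), Sox1-GFP cells (12.2 to 14.7) and T-GFP cells (20.9 and 10.8). The summed signal of 10 pluripotency genes was 1352 to 1544 in MEF, 15432 to 15744 in Ezh2-null and 6257 to 6991 in wild-type cells at day 8, against 18323 to 23216 in wild-type cells at day 0. At day 6 it was 9635, 10206, 2265, 11167 and 9017 in Ezh2-null cells and 9663 and 9775 in cells labelled Eed-null, against 3648 to 4975 in wild type. The Ezh2-null array at 2265, replicate 3, also had the highest Kdr signal of its group (470.3). The part of these sums in the members' values was not tested. Over the 15 group means, the genes most alike Pecam1 in pattern were Coq8a (r = 0.946), Fbxo15 (0.939) and Rpl39l (0.938).

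Counted over the days of wild type, 1 of the 8 tested members was called at day 2 against day 0 (Pecam1), where 3.43% of all genes were called. At day 6, 4 were called (Kdr, Lmo2 and Runx1 higher, Pecam1 lower), against 10.3% of all genes. At day 8, 4 were called, all higher (Kdr, Tal1, Lmo2 and Runx1), against 11.4% of genes called and 7.71% called higher. Of the members called, Tal1 and Runx1 were tested only through their high arrays of days 6 and 8. The median log2 difference of the 8 was 0.74 at day 6 and 0.88 at day 8, against 0.04 and 0.05 over all tested genes. Between day 8 and day 6 none was called by limma (0.963% of genes), and 3 had an unadjusted p under 0.05. In Ezh2-null cells 3 were called at day 6 against day 0 (Kdr, Runx1 and Pecam1, 16.3% of genes) and 1 at day 8 (Runx1, 8.58%). Against their own day 0, cells labelled Eed-null had 1 call at day 6 (Runx1, 10.1%). The Runx1 calls in both mutants carry the same limit as in wild type.

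In the cell types, T-GFP cells had Kdr at 743.2 and 348.1, Lmo2 at 238.4 and 198.2 and Etv2 at 218.5 and 130.8. Sox1-GFP cells had 111.7 to 140.8, 43.2 to 77.5 and 44.0 to 48.6 for these genes, below both T-GFP arrays for each. Against Sox1-GFP cells all 3 were higher, by 1.79 ± 0.23 for Kdr (limma, adjusted p = 2.3e-08), 1.5 ± 0.24 for Lmo2 (2.6e-06) and 1.37 ± 0.23 for Etv2 (5.7e-06), and these were the 3 members called, against 10.3% of all genes. Tal1 was at 32.7 and 30.2 in T-GFP cells, near its level in wild-type cells at day 0. Hbb-bh1 was 17.4 and 40.9 in T-GFP cells. In these cells Kdr and Lmo2 were thus high without Tal1 or this globin, whereas in wild-type cells at day 8 all 4 were high. Kdr and Lmo2 were also high on the second-set wild-type arrays of day 6 (997.7 to 1272.2 and 138.3 to 212.5). On those arrays Tal1 was 25.0 to 37.7 and Hbb-bh1 41.3 to 113.0.

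Against wild-type cells at day 0, T-GFP cells were called higher in Kdr (1.73 ± 0.20, limma, adjusted p = 2.3e-09) and Lmo2 (2.03 ± 0.21, 1.6e-10) and lower in Pecam1 (-1.53 ± 0.16, 3.8e-10), 3 of 8 members against 9.50% of all genes. Against wild-type cells at day 6 none was called (0.659% of genes), with 4 at an unadjusted p under 0.05: Lmo2 differed by 0.02 ± 0.22, and Kdr by -0.90 ± 0.21 (0.0095). Without T-GFP replicate 1, the higher of the 2 in Kdr, the Kdr difference was -1.41 (adjusted p = 0.00047), and without wild-type replicate 2 of day 6 it was -1.02 (0.0024), both called. Neuronal stem cells differed from wild type at day 0 in Pecam1 alone among the members called (-1.57 ± 0.16, 4.4e-11), where 23.2% of genes were called. MEF differed in Gata2 and Pecam1 (-1.67 ± 0.16, 6.4e-12), with 24.1% of genes called.

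Ranked by group mean, Kdr stood at 1005.8 ± 253.2 in wild-type cells at day 6 (SD, n = 5), 655.0 ± 22.3 at day 8 (n = 2), 545.7 ± 279.4 in T-GFP cells (n = 2) and 330.1 ± 93.9 in day 6 Ezh2-null cells (n = 5). The ranges of days 6 and 8 did not overlap, while those of day 8 and T-GFP cells did. Lmo2 averaged 227.3 ± 90.4 in wild-type cells at day 6, 218.3 ± 28.4 in T-GFP cells and 181.3 ± 3.6 in wild-type cells at day 8, of which day 6 and T-GFP overlapped. Etv2 was led by wild-type cells at day 2 (178.6 ± 91.3, n = 4) and T-GFP cells (174.7 ± 62.0), which overlapped. Tal1 was led by wild-type cells at day 8 (92.2 ± 18.5) and day 6 (63.0 ± 43.4), which overlapped too. The genes most alike Kdr over the 15 group means were Prdm6 (r = 0.941), Aplnr (0.912) and Cited1 (0.901), and Lmo2 was most like Cited1 (0.937). Etv2 was most like Dcaf15 (0.922), Gata2 like Trnp1 (0.944), Runx1 like Dysf (0.983) and leading Cdh5 like Klhl18 (0.972).

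Around the 9 genes, 86 other genes of the pathway were listed as signals, receptors, transcription factors, cofactors and endothelial or blood surface genes, of which 74 were tested. In wild type 16 of the 74 were higher and 3 lower at day 6 than at day 0, where 5.96% of all genes were called higher and 10.3% either way, with a median of 0.14 against 0.04 over all genes. At day 8 21 were higher and 1 lower, against 7.71% of all genes called higher and 11.4% either way. Aplnr, the receptor for apelin on early mesoderm, rose at day 6 by 4.38 ± 0.12 (limma, adjusted p = 3.7e-29) and the ETS factor Ets1 by 3.10 ± 0.19 (1.0e-17). Of 13 tested endothelial surface genes limma called 0 at day 6 and 0 at day 8 against day 0 in wild type, where 10.3% and 11.4% of all genes were called, and 5 and 7 of them had an unadjusted p under 0.05.

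In Ezh2-null cells at day 6, 4 of the 74 were lower than in wild type (Aplnr, Cxcr4, Zfpm1 and Foxf1) and 2 higher (Meis1 and Klf2), where 1.14% of all genes were called lower and 3.03% either way. Aplnr had 74.7, 44.0, 15.7, 21.8 and 30.5 in Ezh2-null cells, against 851.9, 667.4, 735.1, 962.5 and 1375.5 in wild type (-3.79 ± 0.13, limma, adjusted p = 3.2e-25). Zfpm1, the GATA cofactor FOG1, differed by -1.41 ± 0.16 (2.7e-09), and Foxf1, a mesoderm factor, by -1.36 ± 0.17 (6.4e-08). In cells labelled Eed-null 8 were lower and 1 higher, against 1.25% of all genes called lower and 3.10% either way. Among the lower were again Aplnr (-4.34 ± 0.18, 1.0e-22), Foxf1 (-1.56 ± 0.23, 2.6e-06) and Zfpm1 (-1.02 ± 0.21, 0.00041), and also Cbfb, the partner of Runx1 (-1.07 ± 0.23, 0.00075). The median of the 74 was -0.05 in Ezh2-null cells and -0.08 in cells labelled Eed-null.

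At day 8, 8 of the 74 were lower in Ezh2-null than in wild-type cells and 0 higher, against 0.282% of all genes called lower and 1.06% either way. Besides Aplnr, Zfpm1 and Foxf1 they included Itga2b, the early blood integrin CD41 (152.4 and 215.8, against 452.0 and 377.0 in wild type, -1.06 ± 0.17, limma, adjusted p = 8.1e-05), the erythroid factor Nfe2 (-1.23 ± 0.27, 0.0043), the ETS factor Fli1 (-1.37 ± 0.31, 0.0067) and the endothelial factor Sox18 (-2.06 ± 0.36, 0.00032). The median of the 74 was -0.19. The summed signal of the 8 blood surface genes, Itga2b among them, overlapped at day 8. It was 1363 to 1787 in Ezh2-null cells, against 1487 to 1631 in wild type. Itga2b was also at 180.7 to 258.3 in wild-type cells at day 0 and at 302.3 and 342.3 in MEF. Of 6 tested globin and haem genes, 4 were lower in the same comparison, with a summed signal over the globin list of 140 to 178 in Ezh2-null cells, against 10342 to 12085 in wild type. Like Tal1, Nfe2 and the globins Hbb-bh1 and Hbb-y were tested only through wild-type arrays in which they were high. Their p-values thus give no independent support for a difference.

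Most streak and mesoderm genes, like Kdr and Lmo2, rose in wild type by day 6 and were lower in both mutants at that day. Of 11 tested, 8 were higher in wild type at day 6 than at day 0, and 7 were lower than in wild type at day 6 in each of the Ezh2-null and Eed-null comparisons. Over all genes 5.96% were called higher in the first of these comparisons, and 1.14% and 1.25% lower in the Ezh2-null and Eed-null ones. Their summed signal at day 6 was 844 to 1053 in Ezh2-null and 777 to 792 in cells labelled Eed-null, against 1970 to 6431 in wild type. At day 8 it was 819 to 825 in Ezh2-null cells, against 1285 to 1385 in wild type, where Kdr and Lmo2 were still high. Among wild-type arrays of day 6 it was 2045 and 1970 in the first set and 4987, 6030 and 6431 in the second. Kdr was also higher in the second set, but Lmo2 was lower there. The share of the members' differences that goes with the streak and mesoderm genes was not tested.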

How the data were processed

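Total RNA was labelled as biotinylated cRNA and hybridised to Affymetrix arrays, per the labels' protocols. The values deposited by the authors are 1 linear signal intensity per probe set and array, and how they were summarised, background-corrected and scaled is not stated in the labels. Array medians of these intensities lay between 50.5 and 63.0, so no further scaling was applied. All 53 columns mapped to labelled samples. The number of arrays limits the precision.

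Of 45037 probe sets, 34945 had 1 gene symbol in the platform annotation, 932 several and 9160 none. Each gene was led by its probe set of highest mean, and 13807 of 18193 genes were tested, those above the array median on at least 2 arrays. Signals were taken as log2(signal + 32) and fitted with limma 3.58.1 in R 4.3.3 over all 15 groups (lmFit, eBayes, 38 residual degrees of freedom), with Benjamini-Hochberg adjustment over all tested genes. The adjusted p of a further probe set was taken over the tested genes and these probe sets. The added 32 understates fold changes of dim genes. The script was tested on simulated data.

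The members, the gene lists and the tests were chosen with earlier results of these data known. All 9 members were named, with up to 4 called genes of each list by smallest p and the 3 genes most alike each member over the group means; Mixl1 and Col1a1 were named after their values were seen. Same-numbered Ezh2-null and wild-type arrays deviated together at day 2 (r of 0.57 to 0.70 over 4 pairs) and day 6 (0.38 to 0.72 over 5 pairs). In these groups the number also follows the array set, so the correlation cannot show that the arrays were paired. The number entered only an alternative fit, as a block. Alternatives changed the added constant (a smaller and a larger one), the filter (75th percentile), the probe set rule, array weights, the arrays fitted, the wild-type line, the minimum fold, the blocks and each replicate. Fits of a single array set, and of wild-type replicates 4 to 7 alone at day 0, were added after seeing the data. Arrays of day 0, day 8 and the cell types were given no set. They stayed in each single-set fit, and the array set block counted them with the first set.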

Additional observations from a re-analysis of the deposited data

Results flagged for a closer look

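The difference between genotypes in the change from day 0 passed the adjusted threshold (limma interaction, under 0.05) for 4 members and 11 comparisons. For Kdr the change in mutant minus that in wild-type cells was -1.51 in Ezh2-null cells at day 6 (adjusted p = 1.6e-06), -1.56 in Ezh2-null cells at day 8 (0.0015) and -2.01 in cells labelled Eed-null at day 6 (3.7e-07). For Lmo2 it was -1.69 (4.7e-07), -1.47 (0.0048) and -1.65 (2.2e-05) in the same order. For Tal1 it was -0.75 (0.0099), -1.37 (0.0060) and -0.91 (0.010), and only the day 8 value exceeded 2-fold. For Etv2 it was -0.93 in Ezh2-null cells (0.0015) and -0.97 in cells labelled Eed-null (0.0062), both at day 6. The comparisons share their wild-type arrays. In the 63 checks of a member in a group of 4 to 10 arrays, none had 1 array far from the others by Dixon's criterion.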

How the results depend on the processing

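Of the 8 tested members, the number called moved by more than 1.5 times as follows, and its smaller moves, arrays left out apart, were by 1 member (such as wild type at day 6 against day 0, 5 with 8 added and 3 when array set is a block, against 4 as reported). With 8 added in place of 32 it was 2 for wild type at day 2 against day 0 (1 as reported), 1 for Eed-null against wild type at day 0 (0), 2 for Ezh2-null at day 8 (1) and Eed-null at day 6 (1) against day 0, 4 for both day 6 interactions (2 each) and 5 for T-GFP against day 0 (3). With a 4 times larger constant it was 0 for wild type at day 2, Ezh2-null at day 8 and Eed-null at day 6 against day 0 and for neuronal stem cells, 2 for wild type at day 6 (4), and 1 for wild type at day 8 (4), Ezh2-null against wild type at days 6 (2) and 8 (3), Eed-null at day 6 (2), Ezh2-null at day 6 against day 0 (3), all 3 interactions, T-GFP against Sox1-GFP (3) and MEF (2). The stricter filter gave 0 for wild type at day 2 and neuronal stem cells and 1 for MEF. The mean of all probe sets gave 0 for Ezh2-null at day 8 and Eed-null at day 6 against day 0. Array weights gave 1 for each mutant at day 2 and 2 for T-GFP against day 6. A fit of only the arrays compared gave 1 for Eed-null at day 6. The array set as a block gave 1 for Eed-null against wild type at day 6 and 0 for Eed-null at day 6 against day 0. J1 alone gave 1 for each mutant at day 2 and 4 for the Eed-null interaction, and CJ7 alone gave 2 for wild type at day 2, 1 for Eed-null at day 6 and 2 for T-GFP against day 6.

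With no minimum fold the counts were 4, 8 and 7 for wild type at days 2, 6 and 8 against day 0, 1 for day 8 against day 6, 5 for Ezh2-null and 5 for Eed-null against wild type at day 6, 3 for Eed-null at day 0, 5, 4 and 4 for Ezh2-null at days 6 and 8 and Eed-null at day 6 against day 0, 4 for both day 6 interactions, 6 and 1 for T-GFP against days 0 and 6, and 4 each for neuronal stem cells and MEF. With a 1.5-fold minimum they were 3 and 7 for wild type at days 2 and 6, 1 for day 8 against day 6, 4 and 5 for Ezh2-null and Eed-null at day 6, 1 for Eed-null at day 0, 5, 2 and 3 for the same 3 mutant comparisons with day 0, 4 for both day 6 interactions, 5 and 1 for T-GFP, 2 for neuronal stem cells and 4 for MEF. The first array set alone gave 1 for Ezh2-null at day 2, 4 for Ezh2-null at day 6 and its interaction, and 1 for T-GFP against day 6, and the second gave 2 for wild type at day 2, 1 for Eed-null at day 6 and 2 for T-GFP against day 6. Causes were not tested.

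For Ezh2-null against wild type at days 2 and 6, the replicate block changed no member's call (at day 6, Kdr -1.52 and Lmo2 -1.62). In other comparisons the block gave 1 for Eed-null at day 2, 3 for Eed-null at day 6, 4 for T-GFP against day 0 and 1 for T-GFP against day 6. Leaving out 1 array gave 3 to 4 for wild type at day 6, 1 to 2 for Eed-null and 2 to 3 for Ezh2-null at day 8 against wild type, 2 to 4 for Ezh2-null at day 6 against day 0, 2 to 3 for both day 6 interactions, 1 to 3 for the day 8 interaction, 3 to 4 for T-GFP against day 0 and 0 to 1 against day 6, and moved no other count. Of the values of single members, none changed sign while called, and 55 lost and 134 gained a call over all alternatives. Dim signals limit Tie1, Tal1 and the further Runx1 probe sets, and groups of 2 arrays limit day 8.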
